A study of Mus musculus with 144 samples.

Results

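Nuclear RNA of wild-type mouse liver was compared between late in the light phase, at Zeitgeber time (ZT) 10, and late in the dark phase, at ZT22. Zeitgeber time counts hours from lights on. The comparison used every library that the labels give as wild-type nuclear RNA at these times, 6 at ZT10 and 6 at ZT22. These are 12 of the 144 libraries of the study, which also holds total and polysomal RNA of wild-type livers and total RNA of Bmal1-/- livers, at 6 times with 6 libraries a group. All 12 were labelled as liver of male C57BL/6J mice kept under 12 h of light and 12 h of darkness with water and food always available. Both groups were untreated wild type and differed, by their labels, only in the time of day. Nuclei were washed out of homogenised frozen tissue in hypotonic buffer and spun onto a sucrose cushion before RNA extraction. Libraries were made with a QuantSeq 3′ kit, which primes on poly(A) and so is meant to count each transcript near a 3′ end. The labels do not say that the 6 libraries of a group came from 6 animals, so p-values measure the spread between these libraries.

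The clock of liver cells is a transcription loop. The activators BMAL1 (encoded by Arntl) and CLOCK bind E-boxes in the genes of their repressors, the PER and CRY proteins, and in the genes of the nuclear receptors REV-ERBα and REV-ERBβ (Nr1d1 and Nr1d2). The receptors repress Arntl in turn through ROR elements, and the D-box factors DBP, TEF and HLF (activators) and NFIL3 (repressor) pass the rhythm on. Nuclear RNA holds newly made transcripts and those kept in the nucleus, so it lies closer to transcription than total RNA does.

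Promoter windows of 7 of the 12 core clock genes that differed between the times are printed, chosen because they hold one of these elements. They are the RefSeq windows of 250 bases before to 50 bases after a start site on GRCm38.p6, printed 5′ to 3′ on the gene's strand. Capitals mark E-boxes (CACGTG) in Ciart (chr3:95882179-95882478, minus), Tef (chr15:81802423-81802722, plus), Per1 (chr11:69098699-69098998, plus) and Cry1 (chr10:85185005-85185304, minus). They mark D-boxes (TTANGTAA) in Per3 (chr4:151044616-151044915, minus) and the ROR element (TAGGTCA or its reverse complement) in Arntl (chr7:113207261-113207560, plus) and Nfil3 (chr13:52980990-52981289, minus).
Ciart: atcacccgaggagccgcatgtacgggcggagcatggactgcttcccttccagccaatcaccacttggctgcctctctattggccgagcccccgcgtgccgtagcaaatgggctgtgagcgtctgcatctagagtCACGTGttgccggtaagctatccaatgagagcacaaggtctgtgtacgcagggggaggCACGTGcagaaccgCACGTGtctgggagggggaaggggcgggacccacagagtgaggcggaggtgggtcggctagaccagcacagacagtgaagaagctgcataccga
Tef: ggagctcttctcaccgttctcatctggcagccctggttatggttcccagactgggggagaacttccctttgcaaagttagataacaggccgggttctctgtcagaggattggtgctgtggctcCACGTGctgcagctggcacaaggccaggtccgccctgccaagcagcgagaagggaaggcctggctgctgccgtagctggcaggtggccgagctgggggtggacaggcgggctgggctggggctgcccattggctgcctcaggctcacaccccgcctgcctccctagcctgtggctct
Per1: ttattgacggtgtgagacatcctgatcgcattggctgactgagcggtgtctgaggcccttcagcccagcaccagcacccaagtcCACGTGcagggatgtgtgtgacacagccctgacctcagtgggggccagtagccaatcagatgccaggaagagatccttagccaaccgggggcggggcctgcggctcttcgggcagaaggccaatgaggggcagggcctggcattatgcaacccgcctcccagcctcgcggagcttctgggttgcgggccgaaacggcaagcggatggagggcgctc
Per3: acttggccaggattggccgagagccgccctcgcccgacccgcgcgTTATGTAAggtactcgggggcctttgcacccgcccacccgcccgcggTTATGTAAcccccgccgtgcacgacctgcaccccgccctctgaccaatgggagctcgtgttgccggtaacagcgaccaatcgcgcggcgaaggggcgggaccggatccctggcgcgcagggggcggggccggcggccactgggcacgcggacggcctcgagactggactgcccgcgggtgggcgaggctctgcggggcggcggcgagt
Cry1: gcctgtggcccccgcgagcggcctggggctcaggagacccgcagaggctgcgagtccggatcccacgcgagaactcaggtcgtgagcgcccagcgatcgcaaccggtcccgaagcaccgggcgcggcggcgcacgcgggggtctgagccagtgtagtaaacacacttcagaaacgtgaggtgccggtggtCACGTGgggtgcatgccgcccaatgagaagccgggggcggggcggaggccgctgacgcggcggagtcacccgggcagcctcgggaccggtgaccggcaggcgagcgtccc
Arntl: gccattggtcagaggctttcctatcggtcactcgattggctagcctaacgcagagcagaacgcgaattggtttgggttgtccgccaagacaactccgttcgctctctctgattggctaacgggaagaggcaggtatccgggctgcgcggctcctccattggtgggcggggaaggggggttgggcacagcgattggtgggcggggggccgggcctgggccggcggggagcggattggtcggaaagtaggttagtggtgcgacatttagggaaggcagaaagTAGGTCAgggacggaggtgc
Nfil3: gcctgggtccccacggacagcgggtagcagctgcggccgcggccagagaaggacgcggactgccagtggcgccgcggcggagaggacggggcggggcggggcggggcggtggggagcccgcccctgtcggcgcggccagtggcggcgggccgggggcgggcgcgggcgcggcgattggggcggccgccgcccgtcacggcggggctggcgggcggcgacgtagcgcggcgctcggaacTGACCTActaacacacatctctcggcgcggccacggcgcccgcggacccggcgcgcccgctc

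Of the 8 core clock genes higher at ZT10, 3 had an E-box and Per3 a D-box, and the windows of Dbp, Nr1d1, Nr1d2 and Hlf held none of the 3 elements. Of the 4 higher at ZT22, Cry1 had an E-box, Arntl and Nfil3 the ROR element, and the windows of Clock held none. Second windows of Arntl and Per1, at other start sites, also held none. Ciart carried 3 E-boxes, starting 116, 58 and 44 bases upstream of the start site, and Per3 carried D-boxes 205 and 158 bases upstream. The promoter table held 85 of the 110 genes higher at ZT10 in the gene test below, 97 of the 147 higher at ZT22 and 7956 of the 11186 tested. Over both strands, an E-box was present in 17 of the 85 (20%) and in 14 of the 97 (14.4%), against 963 of the 7956 (12.1%) and 7.15% of all 32851 windows in the table. A D-box was present in 6 of the 85 (7.06%) and 2 of the 97 (2.06%), against 2.15% of genes tested. The ROR element was present in 1 of the 85 (1.18%) and 6 of the 97 (6.19%), against 2.56%. A match to one of the 3 motifs is not counted for another. A match describes the letters of the window, not a bound site, and these shares were not tested.

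The 12 nuclear libraries held between 3361979 and 5799542 gene counts. Normalisation factors (TMM) ran from 0.78 to 1.36. The summed level of 11 hepatocyte markers was 50990 to 73539 counts per 1000000 gene counts (CPM) at ZT10 and 49889 to 81285 CPM at ZT22, and edgeR called none of the 11 (0 at an unadjusted p under 0.05). It also called none of the 12 Kupffer, 12 sinusoidal endothelial, 10 stellate and 5 red cell markers tested. Of these, 2 stellate markers had an unadjusted p under 0.05, against 10.7% of all genes tested. Of the defining pancreas markers, 9 of 12 were at 0 in every library. The cholangiocyte list is described with Sox9 below. In bulk libraries, fewer cells of a type and less RNA per cell cannot be told apart.

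One library went against its label. The library labelled nuclear ZT22 replicate 5 held 4363 CPM of Xist, the RNA that coats the inactive X chromosome of females, against at most 1.38 CPM in the other 11. It held no count of Ddx3y, a Y-linked gene at 17.1 to 58.1 CPM in the others, although all mice are given as male. The library labelled total ZT22 replicate 5 likewise held 408 CPM of Xist and 0.38 CPM of Ddx3y. Liver genes known for a sex difference in mice, looked up after these values were seen, went the same way in the nuclear library. Cux2 and Cyp2b9, higher in females, stood at 40.1 and 200 CPM, against at most 2.00 and 14.8 CPM in the other 11. Cyp2d9 and Mup20, higher in males, stood at 59.5 and 75.2 CPM, against at least 1436 and 1403 CPM in the others. Results that depend on it are given with and without this library, and it keeps its labelled name throughout.

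The gene test covered the 11186 genes that averaged 10 counts or more, and 257 of them (2.3%) differed between the times in edgeR's quasi-likelihood test at a Benjamini-Hochberg adjusted p under 0.05, here termed called. At ZT10, 110 (0.983%) were higher, and at ZT22, 147 (1.31%). The median size of a called change was 1.29 on the log2 scale, and 195 genes (1.74% of those tested) were called and differed at least 2-fold, 80 of them higher at ZT10 and 115 at ZT22. Over all genes tested the median log2 change, given throughout as ZT10 over ZT22, was -0.01. The 6 libraries of a time lay entirely on one side of the other 6 for 180 genes (1.61%), 75 of them higher at ZT10 (0.67%) and 105 at ZT22 (0.939%), and 133 of the 180 were called. At an unadjusted p under 0.05 there were 1199 genes (10.7%). Without nuclear ZT22 replicate 5, 221 of 11071 genes (2.0%) were called, 196 of them among the 257. All 250 called genes that could be tested in replicates 1 to 3 alone kept their direction there, as did all 255 tested in replicates 4 to 6 alone. With 3 libraries a time, 78 and 52 of the 257 were still called; the same libraries had chosen the 257, so the shared direction is a description.

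**Figure D1:**
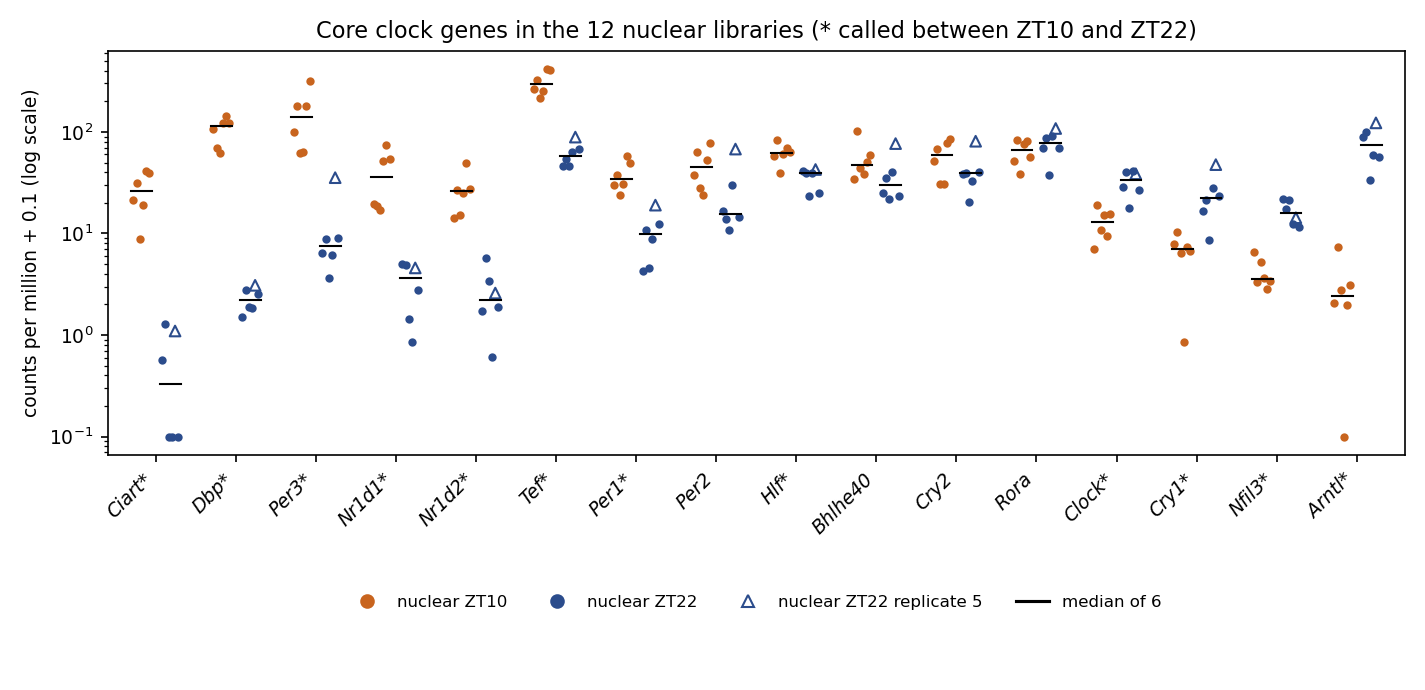
Level of 16 core clock genes in each nuclear library, as CPM plus 0.1 on a log axis, ordered by the size of the change. Orange points are ZT10, blue points ZT22, the open triangle is nuclear ZT22 replicate 5, bars are medians of 6, and an asterisk marks a called gene; 9 genes show no overlap between the times, from Ciart at the left to Arntl at the right.

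Core clock genes were called more often than the 2.3% of all genes. The list was chosen with earlier results of these data known, so this describes its members and is no test. Of 19 listed, 17 were tested (Npas2 and Bhlhe41 were too low), 8 were called higher at ZT10 and 4 higher at ZT22. The D-box activator Dbp stood at 61.3 to 144 CPM (median 115) at ZT10 and at 1.39 to 2.99 CPM (median 2.11) at ZT22. Its log2 change of 5.63 (SE 0.27, edgeR adjusted p = 3.27e-11) had the smallest p of all genes, and every ZT10 library was above every ZT22 library. Tef, of the same family, stood at 214 to 415 CPM (median 294) and 46.4 to 88.8 CPM (median 58.3), a log2 change of 2.39 (SE 0.20, adjusted p = 4.63e-07), again with no overlap. Hlf, the third member, had a log2 change of 0.90 (SE 0.17, adjusted p = 0.00435) from 38.9 to 83.6 CPM at ZT10 and 23.1 to 42.6 CPM at ZT22, and its groups overlapped.

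Ciart, a repressor of CLOCK and BMAL1 whose promoter holds the 3 E-boxes above, ran from 8.73 to 41.6 CPM (median 26.3) at ZT10. At ZT22 it ran from 0 to 1.19 CPM (median 0.23), with at most 4 counts in a library, and the fitted log2 change was 5.96 (SE 0.64, adjusted p = 4.63e-07). Nr1d1 ran from 17.1 to 73.6 CPM (median 35.8) at ZT10 and from 0.76 to 4.87 CPM (median 3.57) at ZT22. Its log2 change was 3.69 (SE 0.43, adjusted p = 1.12e-04), with no overlap. Nr1d2, the other REV-ERB gene, stood at 14.1 to 49.1 CPM against 0.50 to 5.65 CPM, a log2 change of 3.38 (SE 0.38, adjusted p = 2.24e-05), also with no overlap.

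Of the Period genes, which encode repressors of CLOCK and BMAL1, Per1 and Per3 were called higher at ZT10 and Per2 was not called. Per3 stood at 61.9 to 316 CPM (median 139) at ZT10 and at 3.55 to 35.3 CPM (median 7.45) at ZT22, a log2 change of 3.81 (SE 0.44, adjusted p = 3.99e-04). Its highest ZT22 value was nuclear ZT22 replicate 5, and without that library the change was 4.38 (adjusted p = 9.99e-07). Per1 stood at 23.7 to 58.1 CPM (median 34.2) and 4.18 to 18.9 CPM (median 9.76), a log2 change of 2.02 (SE 0.27, adjusted p = 1.26e-04), with no overlap. Per2 stood at 23.8 to 78.3 CPM (median 45.3) and 10.7 to 67.7 CPM (median 15.6), and its log2 change of 1.01 (SE 0.32) missed the threshold (adjusted p = 0.151). The 67.7 CPM was again replicate 5, the next value at ZT22 being 29.98 CPM, and without it Per2 was called, at 1.41 (adjusted p = 0.00294). The same held for Bhlhe40, an E-box repressor, at 0.68 (adjusted p = 0.204) with and 0.89 (adjusted p = 0.0415) without it.

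Arntl, the partner of CLOCK, gave the largest change towards ZT22 of the genes named here. It ran from 0 to 7.32 CPM (median 2.31) at ZT10 and from 33.3 to 122.7 CPM (median 74.0) at ZT22, a log2 change of -4.69 (SE 0.42, adjusted p = 1.02e-05) with no overlap. Clock itself changed by -1.27 (SE 0.22, adjusted p = 0.00191), from 6.96 to 19.0 CPM at ZT10 and 17.8 to 41.6 CPM at ZT22, with groups that overlapped. The repressor genes Cry1 and Nfil3 were also higher at ZT22. Cry1 changed by -1.77 (SE 0.36, adjusted p = 0.0099), at 0.76 to 10.3 CPM against 8.44 to 47.5 CPM, and Nfil3 by -1.94 (SE 0.31, adjusted p = 8.22e-04), at 2.76 to 6.53 CPM against 11.5 to 21.8 CPM. No call was made for Cry2 (0.51, adjusted p = 0.437) or Rora, an activator that acts through ROR elements (-0.18, adjusted p = 0.89). Without nuclear ZT22 replicate 5, 10 core clock genes were called higher at ZT10 and 4 higher at ZT22.

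The 4 nuclear times outside the contrast place it within the day. The mean of Dbp was 2.11 CPM at ZT2, 63.5 at ZT6, 105 ± 32.7 (SD, n = 6) at ZT10, 19.7 at ZT14, 3.62 at ZT18 and 2.17 ± 0.62 at ZT22, so its trough ran from ZT18 to ZT2. Nr1d1 had its highest mean earlier, 87.8 ± 16.1 CPM at ZT6 against 39.0 ± 23.96 CPM at ZT10, and its lowest at ZT18 (1.77 CPM). Per2 had its highest mean later, 79.2 ± 50.7 CPM at ZT14. Arntl had means of 47.9, 8.85, 2.81, 26.7, 63.2 and 76.5 CPM in the same order of times, lowest where Dbp was highest. Means at neighbouring times were not tested against each other. The naming rule, with Sox9, gave 46 called genes. Of the 24 among them that were higher at ZT10, 17 had their highest of the 6 nuclear means at ZT10, and of the 22 higher at ZT22, 11 had it at ZT22.

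**Figure D2:**
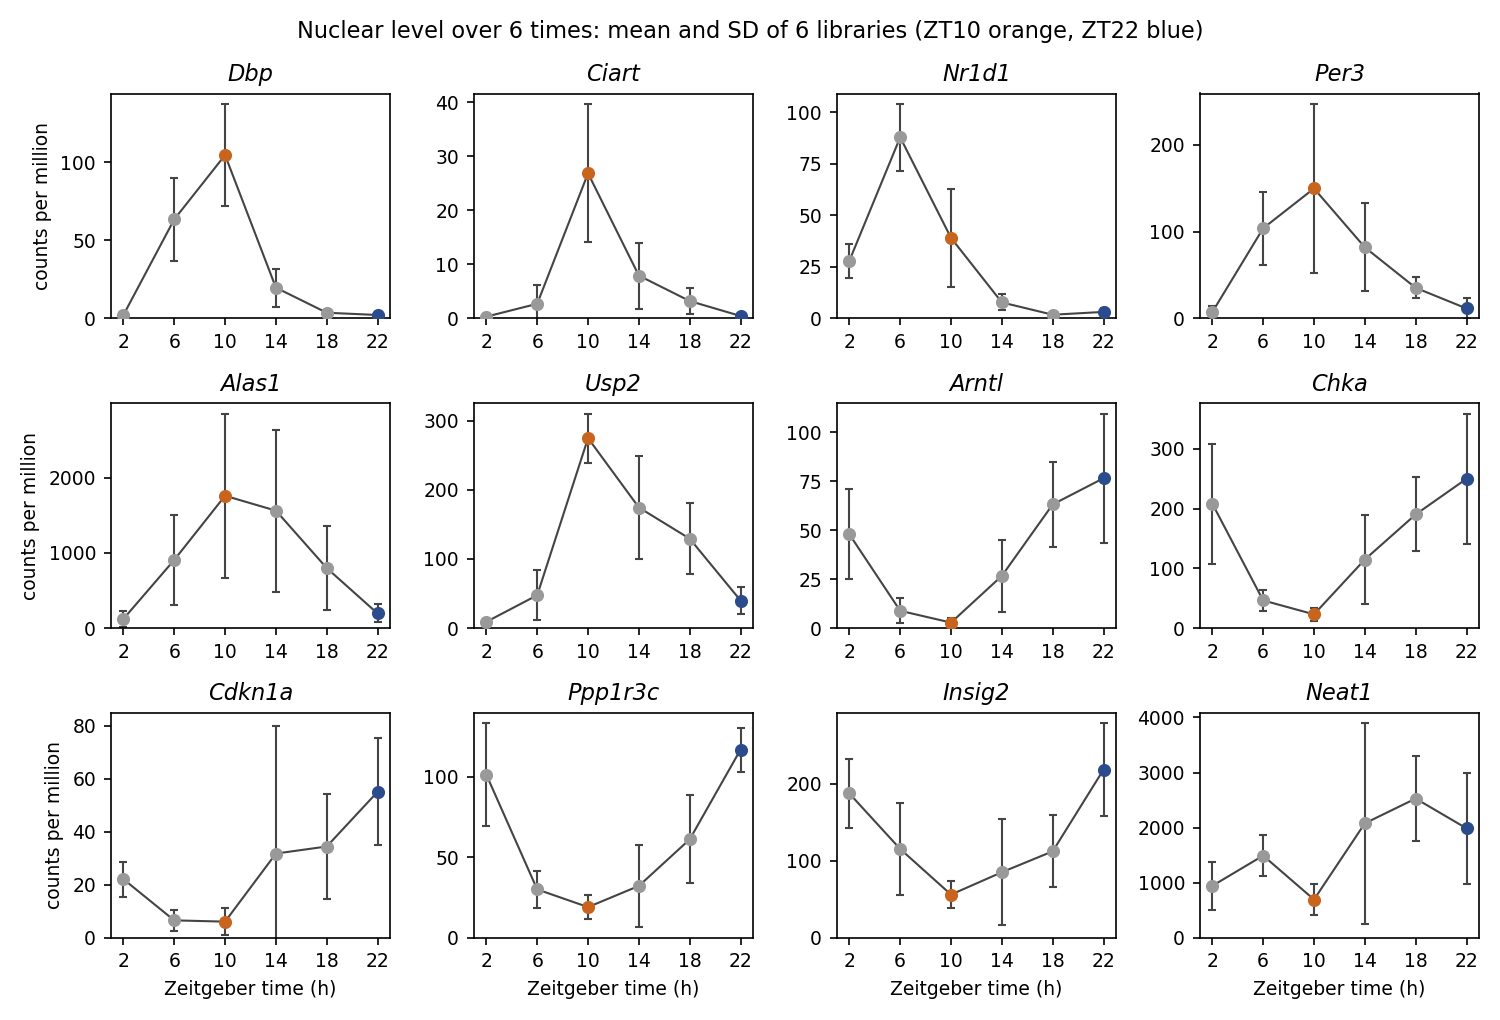
Mean and SD of 6 nuclear libraries at 6 Zeitgeber times for 12 genes, in CPM on linear axes from 0 (bars reaching below 0 are cut there), with ZT10 in orange and ZT22 in blue. Dbp, Ciart, Per3, Alas1 and Usp2 were highest at ZT10 and Nr1d1 at ZT6, while Arntl, Chka, Cdkn1a, Ppp1r3c and Insig2 were highest at ZT22 and Neat1 at ZT18.

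Beyond the core clock, the 6 largest changes towards ZT10 among called genes without overlap that averaged 50 counts or more were in Rgs16, Alas1, Usp2, Upp2, Nrg4 and Gpcpd1. Rgs16, a regulator of G protein signalling, stood at 7.17 to 74.0 CPM (median 26.5) at ZT10 and at 0 to 2.09 CPM (median 0.33) at ZT22, a log2 change of 5.65 (SE 0.88, adjusted p = 7.53e-04). Alas1, the rate-limiting enzyme of heme synthesis, stood at 387 to 3052 CPM (median 1821) and 72.2 to 384 CPM (median 170), a change of 3.28 (SE 0.44, adjusted p = 5.38e-04). Neither gene's groups overlapped, but the lowest ZT10 value of Alas1, 387 CPM, lay just above the 384 CPM of nuclear ZT22 replicate 5. Usp2, a deubiquitinating enzyme, stood at 247 to 332 CPM against 17.6 to 64.5 CPM, a change of 2.83 (SE 0.27, adjusted p = 4.24e-06). The log2 changes of Upp2 (uridine phosphorylase 2, 2.81), Nrg4 (the secreted ligand neuregulin 4, 2.76) and Gpcpd1 (glycerophosphocholine phosphodiesterase 1, 2.71) followed, all with no overlap and adjusted p from 1.18e-05 to 0.00151.

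Towards ZT22 the largest changes by the same rule, after Arntl, were in Chka, Cdkn1a, Tubb2a, Ppp1r3c and Clpx. Chka, choline kinase alpha of phosphatidylcholine synthesis, stood at 10.6 to 36.9 CPM (median 20.2) at ZT10 and at 121 to 407 CPM (median 257) at ZT22, a log2 change of -3.34 (SE 0.27, adjusted p = 4.63e-07). Ppp1r3c, which brings protein phosphatase 1 to glycogen, stood at 12.3 to 30.6 CPM and 98.8 to 132 CPM, a change of -2.63 (SE 0.20, adjusted p = 3.12e-07). In both genes every ZT22 library was above every ZT10 library. Cdkn1a, the cell cycle inhibitor p21, stood at 0.86 to 13.3 CPM and 26.4 to 71.7 CPM, a change of -3.11 (SE 0.60, adjusted p = 0.0229). That call was lost when ZT10 replicate 2 or 4 (adjusted p = 0.0599 and 0.0636) or ZT22 replicate 1 or 3 (adjusted p = 0.052 and 0.0517) was left out. Tubb2a, a beta-tubulin, changed by -2.75, Clpx, the unfoldase of a mitochondrial protease, by -2.33, and Insig2, which holds the SREBP precursors in the endoplasmic reticulum, by -2.0. Dtx4, the manganese exporter Slc30a10, aromatic amino acid decarboxylase Ddc, Eps8l2 and Ypel2 changed by between -1.98 and -1.66. These 8 genes had adjusted p between 1.89e-05 and 3.51e-04 and no overlap between the times.

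Elovl3, a fatty acid elongase known to be higher in males, was called only without the library that went against its label, and was picked out after its values were seen. It stood at 25.5 to 80.5 CPM (median 48.4) at ZT10 and at 209 to 538 CPM (median 343) in 5 of the ZT22 libraries, but at 1.49 CPM in nuclear ZT22 replicate 5. With all 12 libraries its log2 change of -2.60 (SE 0.81) was not called (adjusted p = 0.222). Without that library it was -2.86 (SE 0.29, adjusted p = 4.98e-06). In total RNA it was -2.91 (adjusted p = 0.0643) with all 12 libraries and -3.16 (adjusted p = 1.09e-04) without total ZT22 replicate 5. Elovl3 was 1 of 25 genes called only without nuclear ZT22 replicate 5, 13 of them higher at ZT10. Among these, Noct, which encodes nocturnin and is on the clock output list, went from 1.31 (adjusted p = 0.438) to 2.09 (adjusted p = 0.0141). It stood at 45.8 CPM in replicate 5, within the 14.7 to 53.7 CPM of the ZT10 libraries.

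**Figure D3:**
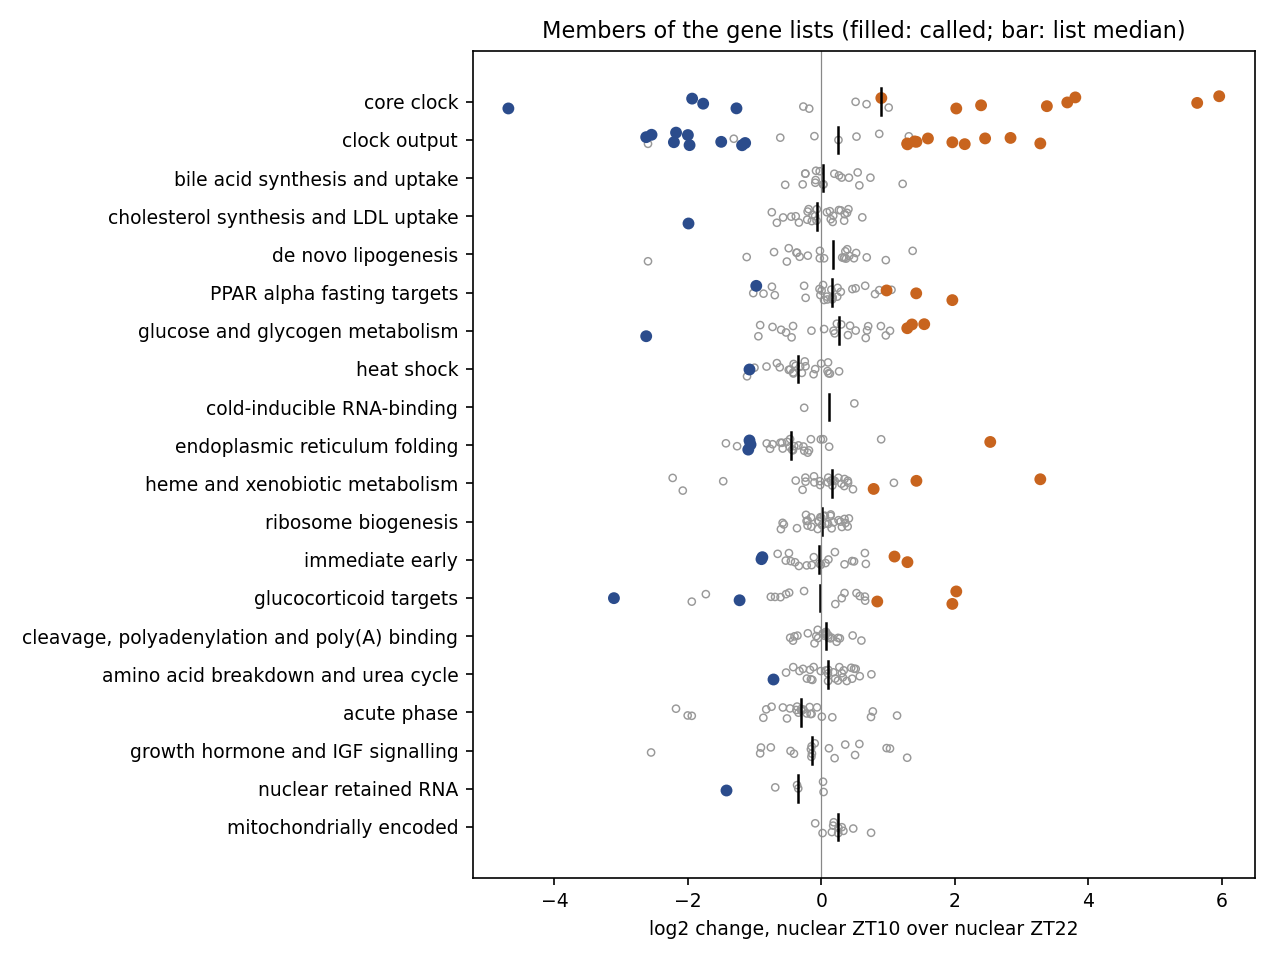
Log2 change between nuclear ZT10 and nuclear ZT22 for every tested member of 20 gene lists, with filled points for called genes (orange higher at ZT10, blue higher at ZT22), open points for genes not called and a bar at the list median. Core clock holds 12 filled points and clock output 19, while the bile acid, ribosome biogenesis and polyadenylation lists hold none.

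The clock output list, genes known to follow the clock in liver or other tissues, had 31 members, of which 27 were tested. Of these, 10 were called higher at ZT10 and 9 higher at ZT22, against 0.983% and 1.31% of all genes tested. The list was chosen with earlier results of these data known, so these counts describe its members and are no test. Wee1, a kinase that holds cells before mitosis, changed by 2.45 (SE 0.28), Coq10b of the coenzyme Q pathway by 2.15 (SE 0.25) and Nampt, the rate-limiting enzyme of NAD salvage, by 1.40 (SE 0.29). Avpr1a, a vasopressin receptor, changed by -2.55 (SE 0.38), Ppard, the nuclear receptor PPARδ, by -2.18 (SE 0.32) and Tars, threonyl-tRNA synthetase, by -1.19 (SE 0.18). The list median was 0.26, since its members moved in both directions, against -0.01 over all genes. Without nuclear ZT22 replicate 5 the counts were 10 and 11 of 26 tested.

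Lists of liver metabolism held up to 4 called genes each, where 2.3% of all genes were called. Of 30 tested targets of PPARα, the fasting-induced nuclear receptor, 3 were higher at ZT10 and 1 at ZT22. Pdk4 and Fgf21 were too low to test. Lpin1, a phosphatidate phosphatase and coregulator, stood at 107 to 239 CPM against 22.4 to 82.7 CPM, a log2 change of 1.96 (SE 0.30, adjusted p = 7.89e-04), and Lpin2 changed by 1.42 (SE 0.23). Cpt1a, the gate of mitochondrial fatty acid import, changed by 0.98 (SE 0.21, adjusted p = 0.0138), and the lipid droplet protein gene Plin5 by -0.98 (SE 0.20, adjusted p = 0.0087). Of 26 glucose and glycogen genes, 3 were higher at ZT10 and Ppp1r3c was higher at ZT22. Pfkfb3, which makes the activator of phosphofructokinase, changed by 1.54 (SE 0.26, adjusted p = 0.00156). Slc2a2, the GLUT2 glucose transporter, changed by 1.36 (SE 0.30, adjusted p = 0.0179, or 0.0569 without ZT22 replicate 4). The glycogen synthase gene Gys2 changed by 1.29 (adjusted p = 0.0421) and was called in 4 of the 12 fits that left out 1 library; without nuclear ZT22 replicate 5 its adjusted p was 0.0966.

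Heme and xenobiotic metabolism held 3 called genes of 28, all higher at ZT10, against 0.983% of all genes. Besides Alas1 these were Por, which passes electrons to cytochromes P450, at 501 to 1025 CPM against 227 to 438 CPM (log2 change 1.42, SE 0.29, adjusted p = 0.00992), and the glutathione transferase gene Gstt2. Gstt2 changed by 0.78 (adjusted p = 0.0239). Its call was lost without ZT10 replicate 3 or 5 or without ZT22 replicate 1, 2, 4 or 5, at adjusted p between 0.0517 (without nuclear ZT22 replicate 5) and 0.079. Of 27 cholesterol genes only Insig2 was called, and of 29 genes of amino acid breakdown only Kynu, at -0.73 (adjusted p = 0.0438). The share called over all genes was 2.3%. Kynu kept its call only without ZT10 replicate 4 or ZT22 replicate 6, and the other 10 fits that left out 1 library gave adjusted p up to 0.128. None of 18 bile acid genes was called by edgeR, 4 having an unadjusted p under 0.05, against 10.7% of all genes. Cyp7a1, the rate-limiting enzyme of bile acid synthesis, stood at 123.3 ± 58.7 CPM (SD, n = 6) at ZT10 and 54.6 ± 32.7 CPM at ZT22, with a log2 change of 1.22 (SE 0.42, adjusted p = 0.231). None of 24 lipogenic genes was called with all 12 libraries (4 at an unadjusted p under 0.05), and Elovl3 was the 1 called without replicate 5.

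Stress lists had medians below the -0.01 of all genes, and so did others such as acute phase genes (-0.30) and nuclear retained RNAs (-0.36). Of 28 tested genes of endoplasmic reticulum folding, 24 had a log2 change below 0, the list median was -0.45, and 15 had an unadjusted p under 0.05. Over all genes 51.3% were below 0, 10.7% had an unadjusted p under 0.05 and 2.3% were called. The chaperone gene Hyou1 (-1.10, SE 0.24, adjusted p = 0.0138), the secreted ER factor Manf (-1.06, SE 0.19, adjusted p = 0.00317) and Creld2 (-1.08, SE 0.27, adjusted p = 0.0376) were called. The call of Creld2 was lost without ZT10 replicate 1, 2, 4 or 5 or ZT22 replicate 1 or 6, at adjusted p up to 0.124. Trib3, a pseudokinase induced by stress, was called in the other direction, at 2.53 (SE 0.58, adjusted p = 0.0245), from 2.83 to 20.7 CPM at ZT10 and 0.50 to 3.32 CPM at ZT22. That call was lost without ZT10 replicate 5 or any of ZT22 replicates 1 to 5, at adjusted p up to 0.0717, with 0.0609 without nuclear ZT22 replicate 5. The major chaperone gene Hspa5 stood at 564 ± 103 CPM at ZT10 and 993 ± 189 CPM at ZT22, with a log2 change of -0.77 (adjusted p = 0.138). The heat shock list had a median of -0.35 with 19 of 24 below 0, and only Hsph1 was called with all 12 libraries, at -1.09 (SE 0.26, adjusted p = 0.0251). Hspa1a and Hspa1b of this list were too low to test. Hsph1 was lost without ZT10 replicate 4, 5 or 6 or ZT22 replicate 4, with adjusted p up to 0.0865. Hspb1, a small heat shock protein gene at 0.25 CPM in nuclear ZT22 replicate 5, went from -1.11 (adjusted p = 0.544) with that library to -1.39 (adjusted p = 0.0469) without it. Syvn1, an ER ubiquitin ligase gene, likewise went from -0.82 (adjusted p = 0.0825) to -0.95 (adjusted p = 0.0211).

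Of 23 immediate early genes tested, Klf10 (1.29) and Junb (1.10) were called higher at ZT10 and Zfp36l1 (-0.90) and Btg1 (-0.88) higher at ZT22. The list held 31 genes, and those too low to test included Fos, Fosb, Atf3, Myc and Nr4a1. The share called over all genes was 2.3%. The call of Klf10 was lost without ZT10 replicate 2 or ZT22 replicate 1, 4 or 6 (adjusted p up to 0.0648), and that of Junb without ZT10 replicate 5 or ZT22 replicate 1 (adjusted p up to 0.0626). Btg1 was called in 4 of the 12 fits that left out 1 library, with adjusted p up to 0.116 and 0.0637 without nuclear ZT22 replicate 5. Of 20 glucocorticoid targets, Per1, Lpin1 and Errfi1 (0.84) were higher at ZT10 and Cdkn1a and Ddit4 (-1.23) at ZT22. Errfi1 was lost without ZT10 replicate 1, 2, 3 or 5 or ZT22 replicate 1, 3 or 4, at adjusted p up to 0.108. No call was made by edgeR among 31 ribosome biogenesis genes, 24 polyadenylation and poly(A) binding factors, 25 acute phase genes or 19 genes of growth hormone signalling. At an unadjusted p under 0.05 these lists held 1, 0, 5 and 3 genes, against 10.7% of all genes.

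Neat1, the architectural RNA of paraspeckles, was the 1 called member of 6 nuclear retained RNAs, where 2.3% of all genes were called. It stood at 328 to 1038 CPM (median 650) at ZT10 and at 648 to 3258 CPM (median 1845) at ZT22, a log2 change of -1.42 (SE 0.30, adjusted p = 0.0132). The groups overlapped, and the exact permutation test of its CPM gave a 2-sided p of 0.0108, or 0.0985 adjusted over 13 library measures. Malat1 stood at 689 to 1962 CPM and 680 to 2371 CPM (exact permutation p = 0.24, or 0.437 without nuclear ZT22 replicate 5). The share of counts at mitochondrially encoded genes was 8.04 to 11.01% at ZT10 and 5.73 to 10.4% at ZT22 (exact permutation p = 0.128). The 5.73% was nuclear ZT22 replicate 5, and without that library the exact permutation p was 0.255. With the mitochondrial share in the model 223 genes were called, 170 of them among the 257. The part of that share in the results was not tested beyond this.

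Sox9, a transcription factor of bile duct cells, was the 1 marker of another cell type that was called, at -1.40 (SE 0.21, adjusted p = 3.99e-04), from 7.60 to 19.9 CPM at ZT10 and 18.9 to 44.8 CPM at ZT22. The summed level of the other 6 cholangiocyte markers was 12.8 to 27.1 CPM (median 17.2) at ZT10 and 12.0 to 30.4 CPM (median 20.7) at ZT22, with groups that overlapped. The sum over all 7 was 23.2 to 46.9 CPM and 30.9 to 75.2 CPM, a difference that lay mostly in Sox9 itself. Spp1, another tested marker of the list, had a log2 change of 0.40 (adjusted p = 0.824). The defining markers Krt19, Krt7 and Epcam averaged between 0.88 and 1.99 CPM in both groups, and Cftr was at 0 in 9 of 12 libraries. The part of such cells in the change of Sox9 was not tested.

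Total RNA of wild-type livers was compared between the same times to set nuclear changes beside those of the whole cell. There, 752 of 12048 genes (6.24%) were called between ZT10 and ZT22, from libraries of 6646766 to 9828730 counts. Of the 257 genes called in nuclear RNA, 197 were also called in total RNA, all 197 in the same direction. They are 76.7% of the nuclear calls and 26.2% of the total RNA calls. Without both libraries labelled ZT22 replicate 5, the shared genes numbered 176, or 79.6% and 28.9% of the lists. The median size of change of the nuclear calls was 1.26 in nuclear and 1.10 in total RNA on the log2 scale.

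The difference itself, fitted as an interaction in edgeR, was called for 0 of 11902 genes (0%). At an unadjusted p under 0.05 there were 248 (2.08%), and the smallest adjusted p was 1.0. Leaving out both libraries numbered 5 at ZT22 also gave 0. The SE of that difference had a median of 0.37 over the 46 called genes of the naming rule and ran from 0.20 to 1.58. The fit took the 24 libraries as independent, and the labels do not say whether same-numbered nuclear and total libraries came from 1 liver, although both libraries numbered 5 at ZT22 went against the male label. Neat1 changed by -1.42 in nuclear and -0.43 (SE 0.24) in total RNA, a difference of -0.98 (SE 0.38, unadjusted p = 0.0162). Alas1 changed by 3.28 and 1.92 (SE 0.38), a difference of 1.36 (SE 0.63, unadjusted p = 0.0436). Dbp changed by 5.63 and 6.22 (SE 0.29), Arntl by -4.69 and -3.88 (SE 0.33) and Chka by -3.34 and -2.95 (SE 0.18). Ppp1r3c changed by -2.63 in nuclear and -2.61 in total RNA, a difference of -0.01 (SE 0.27).

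**Figure D4:**
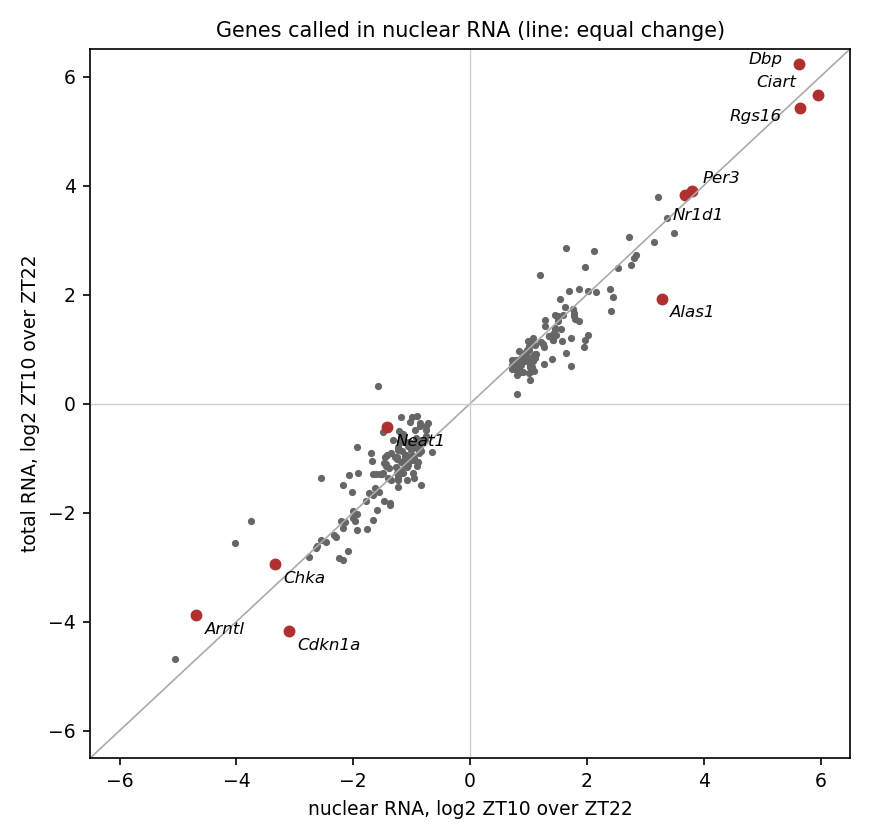
Log2 change between ZT10 and ZT22 in nuclear RNA (x axis) and total RNA (y axis) for the genes called in nuclear RNA and tested in both, 1 point a gene, with 10 genes named and the line of equal change. Of these 245 genes 244 lay on the same side of 0 in both, with Alas1 and Neat1 nearer 0 in total RNA.

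Counting at single 3′ sites gave 162 called sites of 13651 (1.19%), 84 higher at ZT10 (0.615%) and 78 higher at ZT22 (0.571%). Of these, 140 lay in 1 gene each, 100 genes in all, and 91 of those genes were called in the gene test. In all 28 genes with more than 1 called site, the sites moved in 1 direction. Called sites were spread along genes. Of the 140 called sites in genes, 40.7% lay within 25 bp of the annotated gene end and 38.6% more than 1000 bp before it. Among the 12093 tested sites given to a gene these shares were 32.9% and 39.1%. Whether a site lay in an exon or an intron, or marks a true transcript end, was not analysed here.

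Alas1, on the minus strand of chromosome 9, had 8 tested sites, and those holding most of its counts lay well inside the gene. The site at chr9:106241447-106241572, 7992 bp before the gene end, stood at 880 CPM of site counts at ZT10 and 60.5 CPM at ZT22, a log2 change of 3.83 (SE 0.58, adjusted p = 0.00595). The site nearest the gene end, chr9:106233920-106234133, changed by 2.04 (SE 0.27, adjusted p = 4.04e-04), from 145 to 34.9 CPM. It held 10.3% of the gene's site counts at ZT10 and 19.1% at ZT22, a difference in share that the usage test did not call (unadjusted p = 0.0157, adjusted p = 1.0). All 3 tested sites of Usp2 were called, with log2 changes between 2.64 and 3.18, and so were all 5 of Chka, between -3.84 and -3.24. The main Chka site, chr19:3865827-3865878, lay 28491 bp before the gene end and held 58.4% of site counts at ZT10 and 56.4% at ZT22. Both tested Arntl sites, 70417 and 70510 bp before the annotated end, changed by -5.06 and -4.97.

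**Figure D5:**
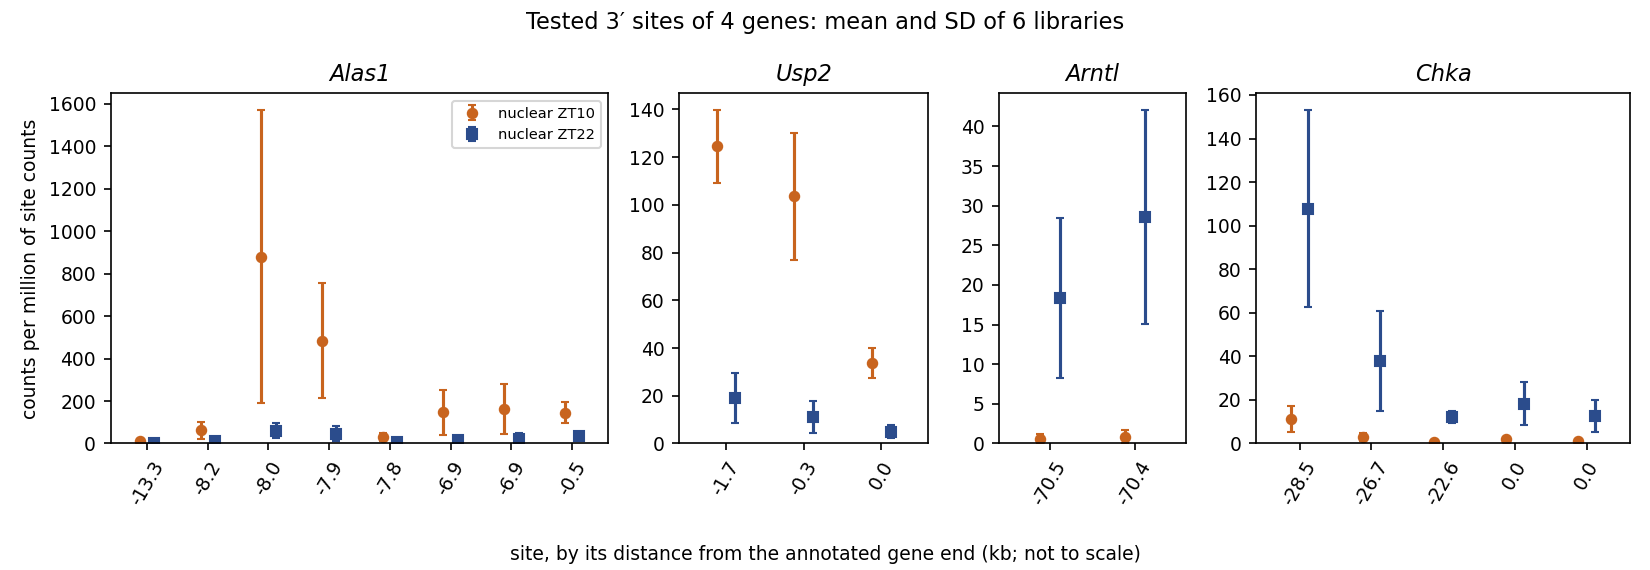
Mean and SD over 6 libraries of the level at each tested 3′ site of 4 genes, as CPM of site counts on linear axes from 0, with sites ordered from inside the gene to its end and labelled by distance from the annotated end in kb (not to scale). All sites of Alas1 and Usp2 had the higher mean at ZT10 (orange circles) and all sites of Arntl and Chka at ZT22 (blue squares).

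Sites were called in 9 genes that the gene test did not call, namely Camk1d, Evi5, Ireb2, Pck1, Sdf2l1, Slc38a4, Slc7a2, Snhg1 and Stat2, listed after their values were seen. In Pck1, the gluconeogenic enzyme PEPCK, the gene changed by 0.89 (adjusted p = 0.138), while 2 sites 5290 and 5192 bp before its end, chr2:173153936-173153984 and chr2:173154022-173154082, changed by 1.59 (SE 0.31, adjusted p = 0.0108) and 1.57 (SE 0.35, adjusted p = 0.0329). In Slc7a2, a cationic amino acid transporter, a site that held 0.96% of the gene's site counts at ZT10 and 0.48% at ZT22 changed by 2.16 (SE 0.36, adjusted p = 0.00232). The gene itself went from 0.91 (adjusted p = 0.269) to 1.30 (adjusted p = 0.0212) without nuclear ZT22 replicate 5.

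The share of a gene's counts at each of its sites, termed usage, was called at 0 (0%) of 8108 sites in 2773 genes. By edgeR, 210 sites (2.59%) had an unadjusted p under 0.05, and an exon-level edgeR test also called 0. The mean share at the site nearest the 3′ end was 41.2 ± 1.91% (SD, n = 6) at ZT10 and 40.9 ± 2.34% at ZT22 (exact 2-sided permutation p = 0.807, or 0.405 without nuclear ZT22 replicate 5). The smallest usage p belonged to Pnkd, a clock output gene that was higher at ZT22 (-1.14, adjusted p = 0.00231). Its internal site chr1:74287198-74287456 held 22.2 to 44.4% (median 34.0%) of the gene's site counts at ZT10 and 18.03 to 21.9% (median 18.4%) at ZT22. The ZT10 libraries lay above the ZT22 libraries without overlap (unadjusted p = 6.27e-05, adjusted p = 0.36). Leaving out ZT10 replicate 6 called that site alone (adjusted p = 0.0357), and leaving out nuclear ZT22 replicate 5 did not (adjusted p = 0.628). Its site at the gene end, chr1:74353516-74353692, held 63.8% at ZT10 and 77.8% at ZT22.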

How the data were processed

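The deposited gene and site tables hold raw counts of QuantSeq 3′ reads per gene (51912) and per polyadenylation site (86780); only the raw counts were used, and the authors' normalised tables were not. STAR 2.4.2a, HOMER and edgeR, with mm10 and GRCm38.p5, are named in the submitters' processing notes, and the aligner settings are not given in the sources used here. Site positions come from the deposited site lists; 29199 sites passed the authors' filter. Sites were given to genes by RefSeq GRCm38.p6, on the strand of the gene, up to 1000 bp past its end, if the site counts of the gene summed to 0.3 to 1.5 of its gene counts (24567 sites in 8169 genes). Strands came from the promoter windows. For 1686 protein-coding genes without one, the strand was that with at least 90% of the site counts inside the gene.

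Genes or sites averaging 10 counts or more were tested with edgeR 4.0.16 (R 4.3.3; TMM, robust quasi-likelihood F test, Benjamini-Hochberg over all features tested, threshold 0.05), on the 12 nuclear libraries alone. Fold changes come from that model and CPM from raw counts. Usage took the log of the gene's site total plus 0.5 as offset, in genes averaging 50 site counts or more, with at least 2 sites holding 5% each. The interaction used 24 libraries. Library measures used exact permutation of the libraries. Scripts were tested on simulated data. No 2 libraries of a group were copies (30 pairs). Alternatives were DESeq2 1.42.0 and those in the closing section.

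Named genes were every core clock gene, the 12 largest called changes each way without overlap among genes averaging 50 counts or more, and up to 3 called members of each other list. Further members of lists (such as Wee1, Manf, Plin5, Btg1, Hspa5, Cyp7a1 and Noct), sex-biased genes, sites in uncalled genes, Pnkd and Sox9 were named after their values were seen. The members and lists were chosen with earlier results of these data known, so counts of called members are descriptions. The labels do not say that the replicate numbers join libraries of different times, so the numbers were not taken as pairs. Same-numbered libraries at the 2 times correlated between 0.04 and 0.42 (deviations from group means), 4 of 6 best with their own number. Whether same-numbered libraries shared a batch or formed pairs was not tested, and fits with the number as block are in the closing section. Counting error limits low genes, and reads without molecular identifiers are not independent molecules. Some tested members of the lists are counted in them but not reported here by name.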

Additional observations from a re-analysis of the deposited data

Results flagged for a closer look

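Over 134 groups of 6 values of a gene or library measure, the highest and lowest value were compared with their neighbour by Dixon's test at the 95% level. Of these values 18 stood apart, all of them the highest of their group. Chance gives about 1 in 20 groups if values are normal. The values were not transformed and their shape was not tested, so the number of 18 is a description. In nuclear ZT22 replicate 5, the library whose Xist and Y-linked counts went against its label, these were Xist (4363 CPM, next 0.59), Per2 (67.7 CPM, next 29.98), Per3 (35.3 CPM, next 8.86), Cry2 (80.9 CPM, next 40.1), Bhlhe40 (76.7 CPM, next 40.1) and Upp2 (153 CPM, next 79.4). All 6 were highs, and 5 of them are genes of this report whose change between the times is larger without that library.

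Other highs at ZT22 were Rgs16 in replicate 1 (2.09 CPM), Klf10 in replicate 2 (14.9 CPM), Por (438 CPM) and the Kupffer markers (818 CPM summed) in replicate 3, and Lpin1 in replicate 6 (82.7 CPM). At ZT10 they were Bhlhe40 (103 CPM) and Klf10 (27.9 CPM) in replicate 2, the red cell markers in replicate 3 (5626 CPM summed), Cpt1a in replicate 4 (111 CPM), and Rgs16 (74.0 CPM), Gstt2 (131 CPM) and the mean share at the distal site (44.9%) in replicate 5.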

How the results depend on the processing

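The 257 called genes numbered 257 with median-ratio size factors, 181 with a mean of at least 50 counts, 339 with every gene of at least 1 count, 239 with all 36 nuclear libraries, 223 with the mitochondrial share as covariate and 370 by DESeq2. It was 103 in replicates 1 to 3 and 64 in replicates 4 to 6, where fewer samples enter. Leaving out 1 library gave 185 to 267 genes, 114 to 175 sites and 0 to 1 usage sites (the 1 without ZT10 replicate 6). The 162 called sites were 76 and 15 in those replicate sets and 491 over the unfiltered list. With the replicate number as block, 469 genes, 326 sites, 0 usage sites and 0 interaction genes (392 at an unadjusted p under 0.05) were called. Between the times 4 of 6 libraries correlated best with their own number; between nuclear and total RNA 6 of 6 did at ZT10 (0.13 to 0.415) and 4 of 6 at ZT22 (0.0648 to 0.629), a hint from the data and not from the design. Of the 46 called genes of the naming rule (Sox9 included), 37 held in all 12 fits that left out 1 library. Summed hepatocyte markers averaged 61852 CPM at ZT10 and 63709 CPM at ZT22 (exact permutation p = 0.771). Once the 10 genes with most counts were left out, the difference had the other sign, at 279 CPM (exact permutation p = 0.961). Neither test told the times apart, and the cause of the change in sign was not tested. The fits without both libraries numbered 5 at ZT22 were chosen after seeing the data. Low genes such as Ciart at ZT22 rest on few counts, and shares at single sites on the counts of 1 gene.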
